A study of Mus musculus with 4 samples.

Results

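The nuclear receptors and cofactors that set the fuel use of the heart were followed as a group of 9 genes: Ppara, Ppard, Esrra, Esrrg, Rxra, Ppargc1a, Ppargc1b, Nrip1 and Klf15. They were picked by gene symbol, and all 9 were among the 12408 genes listed for 4 mouse heart libraries. Every mouse was 3 months old and of the C57BL/6 strain. CT mice were WW45 flox/flox, meaning that both copies of WW45, a scaffold gene of the Hippo pathway listed as Sav1, carried the sites cut by Cre recombinase. Mice labelled cKO were WW45 flox/flox-alpha-MHC-CRE, whose Cre is under the alpha-myosin heavy chain (alpha-MHC) promoter of cardiomyocytes. All 4 hearts thus carried the floxed alleles, and a Cre control without them is not among the labels. CT baseline and cKO baseline were labelled as being at baseline conditions. CT TAC and cKO TAC had 4 weeks of transverse aortic constriction, an operation that narrows the aorta so that the left ventricle pumps against a higher pressure, and none of the labels names a sham operation. Each group was 1 mouse, so a difference between groups compares libraries and has no replicate check.

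PPAR alpha and PPAR delta are nuclear receptors that bind fatty acids and, paired with the retinoid X receptor RXR alpha, switch on genes of fatty acid uptake and oxidation. The estrogen-related receptors ERR alpha and ERR gamma have no known natural hormone and drive genes of the respiratory chain and the citric acid cycle. PGC-1 alpha (Ppargc1a) and PGC-1 beta (Ppargc1b) are coactivators that work through these receptors, RIP140 (Nrip1) is a corepressor that opposes them, and KLF15 is a zinc finger factor that promotes the use of fats and amino acids. The adult heart, which burns mostly fatty acids, relies on this network.

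The libraries held between 1587840 and 2796547 reads recovered from the deposited values, with CT baseline the deepest. Cardiomyocyte markers, 14 of 15 of them listed and Myh6 and Tnnt2 among them, were summed in CPM (reads scaled to equal library size). They came to 153730 CPM for CT and 135880 for cKO at baseline, and to 152959 for CT and 121459 for cKO under TAC. Fibroblast markers summed to 3981 CPM for CT and 5557 for cKO at baseline, and to 8101 for CT and 9435 for cKO under TAC. Macrophage markers summed to 439 CPM for CT and 1000.1 for cKO at baseline, and to 647 and 888 under TAC. Endothelial markers lay between 2439 and 4046 CPM, mural markers between 621 and 1060, and erythroid markers between 737 and 2240. Adipocyte markers, 3 of 8 of them listed and Fabp4 among them, lay between 808 and 2307 CPM. Skeletal muscle markers, 4 of 6 of them listed, lay between 1933 and 3812 CPM, and include Ckm, also counted as a cardiomyocyte marker. Lymphocyte markers were at or near 0, with at most 4.35 CPM. Sav1 had 133 reads (49.3 CPM) in CT baseline and 71 (35.4 CPM) in CT TAC. It had 65 reads (39.8 CPM) in the library labelled cKO baseline and 85 (46.2 CPM) in the library labelled cKO TAC. It was therefore not lower than CT under TAC, and gene-level reads cannot show whether the floxed exons were lost. Genotype differences below compare libraries as labelled.

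**Figure D1:**
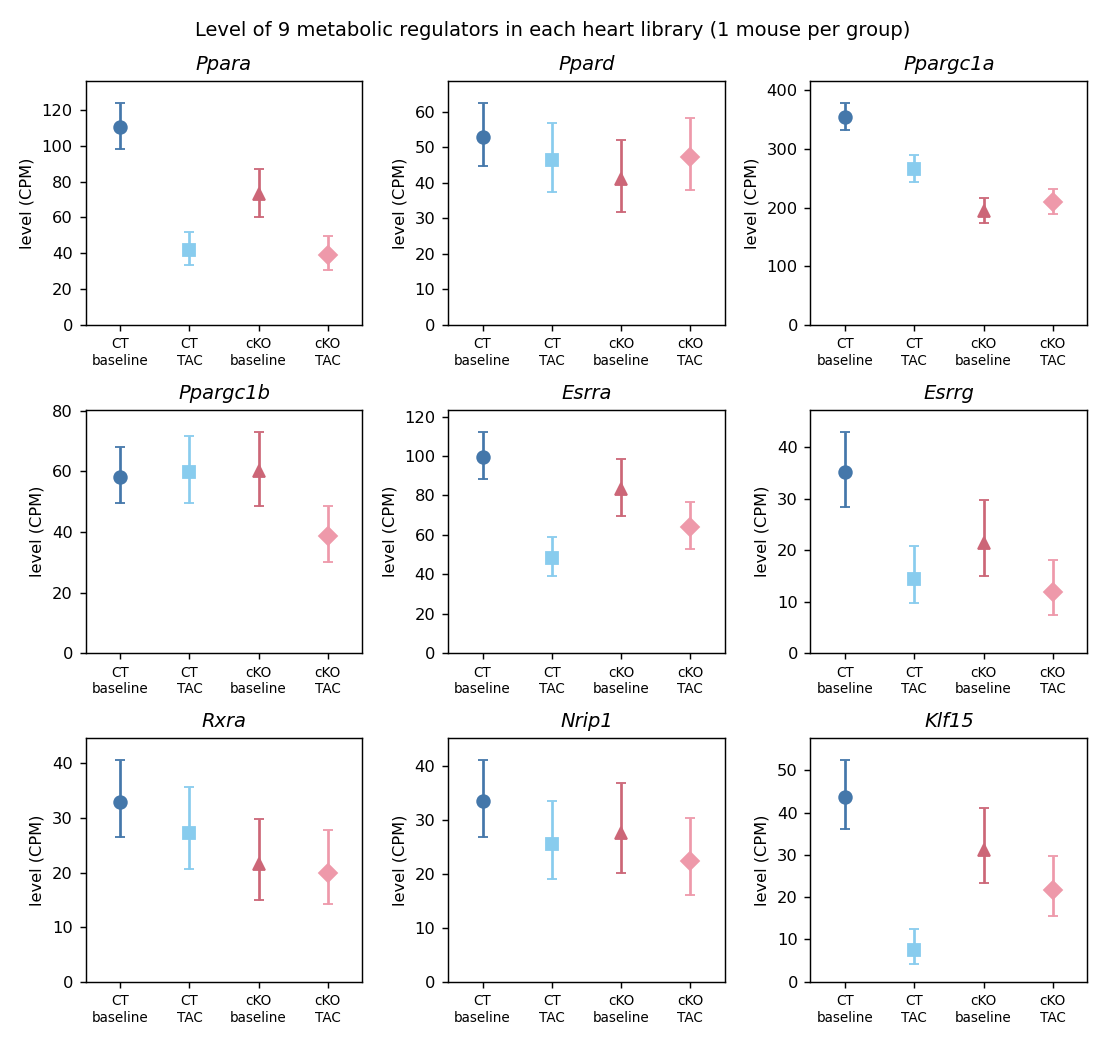
Level of each of the 9 regulators (CPM, vertical axis from 0) in the 4 heart libraries, with bars for the 95% Poisson counting interval of 1 mouse per group. CT baseline is the highest library for 8 genes, Ppargc1b being the exception, and Klf15 in CT TAC stands at 7.49 CPM.

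Promoter sequences are shown for Klf15, Ppara and Esrra, which were at least 2-fold lower in the CT TAC library than in CT baseline. Esrrg was also at least 2-fold lower there. It had 4 promoters, which are not shown. The sequences are from RefSeq on the GRCm38.p6 build, the same assembly as mm10, and run from 250 bases before to 50 after a transcript start. Of the 9 genes, 8 had an entry there, with 13 promoters in all, and Ppargc1b was not matched. Capitals mark the E-box CACGTG, which clock and other basic helix-loop-helix factors bind, and the CACCC box CCACCC or its reverse complement, which Krüppel-like factors bind.
Klf15 chr6:90462326-90462625 (plus strand): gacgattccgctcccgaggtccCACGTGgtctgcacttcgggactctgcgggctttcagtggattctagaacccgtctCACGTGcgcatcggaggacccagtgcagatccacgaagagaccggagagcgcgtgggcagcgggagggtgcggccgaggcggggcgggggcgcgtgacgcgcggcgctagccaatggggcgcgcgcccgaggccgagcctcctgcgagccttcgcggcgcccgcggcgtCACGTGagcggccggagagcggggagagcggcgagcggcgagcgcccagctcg
Ppara chr15:85735526-85735825 (plus strand): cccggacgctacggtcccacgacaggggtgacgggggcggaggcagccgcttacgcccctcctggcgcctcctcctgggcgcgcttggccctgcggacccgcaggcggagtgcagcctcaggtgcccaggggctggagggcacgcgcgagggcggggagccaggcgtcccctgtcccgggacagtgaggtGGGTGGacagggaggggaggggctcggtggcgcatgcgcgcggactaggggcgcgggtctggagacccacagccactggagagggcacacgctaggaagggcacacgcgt
Esrra chr19:6921759-6922058 (minus strand): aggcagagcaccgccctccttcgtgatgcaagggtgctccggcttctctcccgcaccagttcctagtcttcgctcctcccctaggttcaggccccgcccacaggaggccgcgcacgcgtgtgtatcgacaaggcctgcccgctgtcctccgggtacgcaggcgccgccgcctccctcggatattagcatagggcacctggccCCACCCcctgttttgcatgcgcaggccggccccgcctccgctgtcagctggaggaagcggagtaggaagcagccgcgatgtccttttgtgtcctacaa
The Klf15 window held 3 E-boxes, starting 228, 172 and 3 bases before the transcript start. At least 1 E-box was present in 7.15% of 32851 mouse promoters of the same length, and at least 3 in 0.0883% (29 promoters). The cut of 3 equals the number in the Klf15 window, and no such share was computed for the other motifs. No other promoter of the group held CACGTG. The CACCC box was found in 8 of the 13 promoters, which belong to Ppara, Esrra, Esrrg, Rxra and Nrip1, and in 31.5% of all promoters. The full ERR element TCAAGGTCA (0.423% of all promoters) and the cAMP element TGACGTCA (1.79%) were in none of the 13 windows. The shorter receptor element AAGGTCA, which is part of the ERR element, was in 1 of the 2 Rxra promoters and in 4.72% of all. Both strands were searched. A match is a run of letters and does not show that a factor binds.

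Per kilobase of merged exon, Ppargc1a was the most abundant of the 9, with a mean level of 38.9 CPM per kilobase over the 4 libraries. Ppara (17.2), Esrra (16.8) and Ppargc1b (13.6) followed at mean levels per kilobase close to each other. Klf15 had 9.33 CPM per kilobase, Ppard 6.25, Rxra 4.66, Esrrg 3.34 and Nrip1 2.37. The order of these means did not hold in every library. In CT TAC, Ppargc1b was above Esrra and Ppara (10.9 CPM per kilobase), and Klf15 (2.68) was below Ppard (6.18) and Rxra. Exons were taken from GENCODE M21 annotation of mm10, and the annotation that the submitters counted on is not given in the sources used here. Rxra had parts of reads shared with other places, so its values are uncertain.

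The first question was how the CT heart after TAC differed from that at baseline. Ppara, Esrra, Esrrg and Klf15 were at least 2-fold lower in the CT TAC library, with a 95% counting interval of the ratio that excluded 1. None of the 9 was higher by that rule. By the same rule 4.69% of all 12408 genes were lower and 6.05% higher. The median log2 ratio was -0.41 over the 9 genes and 0.01 over all genes. The members below 0 were 8 of 9, against 49.1% of all genes. Intervals cover counting error, not the spread from mouse to mouse.

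Among the PPAR receptors, Ppara (mm10 chromosome 15, 85734983 to 85802819) had 298 reads (110.5 CPM) for CT and 119 (72.8 CPM) for cKO at baseline, against 84 (41.9 CPM) and 72 (39.2 CPM) under TAC. Both TAC libraries were below both baseline libraries, a pattern shown by 22.8% of all genes. The ratio of CT TAC to CT baseline was 0.380 (interval 0.294 to 0.485, log2 -1.39). In the libraries labelled cKO the ratio of TAC to baseline was 0.538 (0.396 to 0.727, log2 -0.89), short of 2-fold. Across all 4 libraries Ppara fell with TAC by 1.14 on the log2 scale (SE 0.23, limma over all genes, adjusted p = 0.035, 2 TAC against 2 baseline mice, lower in both genotypes). Limma called 1.82% of all genes for TAC in either direction, and 0.524% of all genes as lower. The Ppara call did not hold without a mean-variance trend (adjusted p = 0.344), without a genotype term (0.131) or with 4 added reads (0.0851). The adjusted p ranged from 0.00588 to 0.344 over 6 alternatives.

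Ppard (chromosome 17, 28232700 to 28301474), the receptor of that family with the broadest expression, had 53.0 CPM for CT and 41.0 for cKO at baseline, and 46.4 and 47.3 under TAC. Each step in the order of its levels had an interval that included 1. The change with TAC was 0.01 in limma's fit (log2, SE 0.24, adjusted p = 0.991). Rxra (chromosome 2, 27676440 to 27762957) had 32.9 CPM for CT and 21.6 for cKO at baseline, and 27.3 and 19.9 under TAC. Its neighbouring levels also did not differ beyond counting error, and its TAC effect was -0.19 (SE 0.27, limma, adjusted p = 0.781).

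Both estrogen-related receptors were lower under TAC in each genotype. Esrra (chromosome 19, 6910977 to 6921813) had 269 reads (99.7 CPM) for CT and 136 (83.2 CPM) for cKO at baseline, against 97 (48.4 CPM) and 118 (64.2 CPM) under TAC. The lowest library was CT TAC. The TAC libraries were both below both baseline libraries, as they were for 22.8% of all genes. The ratio of TAC to baseline was 0.486 in CT (interval 0.381 to 0.615) and 0.771 in cKO (0.598 to 0.994). Esrrg (chromosome 1, 187608791 to 188214885) had 95 reads (35.2 CPM) for CT and 35 (21.4 CPM) for cKO at baseline, against 29 (14.5 CPM) and 22 (12.0 CPM) under TAC. Here too both TAC libraries were below both baseline libraries. The ratio of TAC to baseline was 0.411 in CT (0.261 to 0.629) and 0.559 in cKO (0.312 to 0.98). Limma over all genes gave a TAC effect of -0.70 for Esrra (SE 0.23, adjusted p = 0.167) and -1.03 for Esrrg (SE 0.30, adjusted p = 0.124), neither past the threshold of 0.05.

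**Figure D2:**
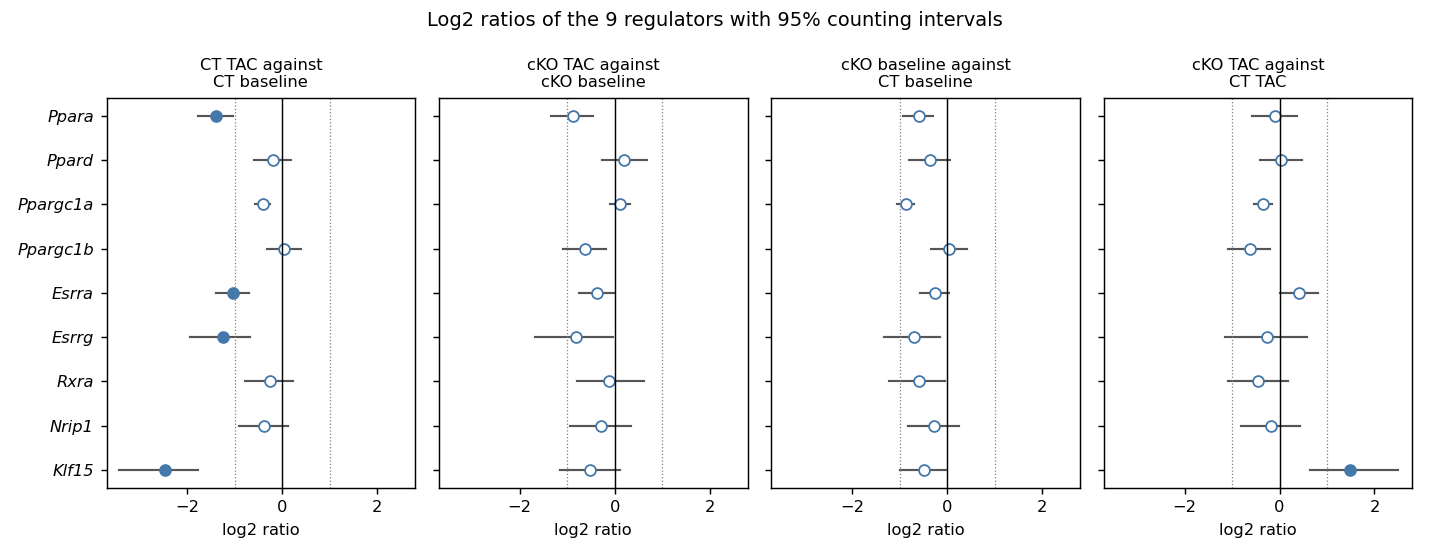
Log2 ratio of the 9 regulators in the 4 comparisons of libraries (horizontal axis; circles are the deposited differences, lines the 95% counting intervals, dotted lines 2-fold). Filled circles are at least 2-fold apart with an interval that excludes 1: Ppara, Esrra, Esrrg and Klf15 in CT, and Klf15 between the TAC libraries.

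Of the coactivators, Ppargc1a (chromosome 5, 51454250 to 51567726) had 958 reads (355 CPM) for CT and 317 (194 CPM) for cKO at baseline, against 534 (267 CPM) and 385 (209 CPM) under TAC. Both cKO libraries were below both CT libraries, a pattern shown by 14.2% of all genes. It was 0.751 of baseline in CT TAC (interval 0.674 to 0.835) and 1.08 in cKO TAC (0.928 to 1.26). Ppargc1b (chromosome 18, 61298136 to 61400431) had 58.2 CPM for CT and 59.9 for cKO at baseline, and 59.9 for CT and 38.6 for cKO under TAC. The first 3 of these did not differ beyond counting error, and cKO TAC was lower than cKO baseline by a ratio of 0.644 (0.468 to 0.883). The corepressor Nrip1 (chromosome 16, 76287400 to 76373827) had 33.4 CPM for CT and 27.5 for cKO at baseline, and 25.5 and 22.3 under TAC. No neighbouring pair of these levels differed beyond counting error. TAC effects in limma's fit over all genes were -0.15 for Ppargc1a (adjusted p = 0.74), -0.29 for Ppargc1b (adjusted p = 0.589) and -0.34 for Nrip1 (adjusted p = 0.565).

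Klf15 (chromosome 6, 90462576 to 90475238) spanned the widest range of the 9, at 2.47 log2 units over the 4 libraries, against a median span of 0.80 over all genes. It had 118 reads (43.7 CPM) for CT and 51 (31.2 CPM) for cKO at baseline, against 15 (7.49 CPM) and 40 (21.8 CPM) under TAC. CT TAC stood apart as the lowest library. The ratio of TAC to baseline was 0.171 in CT (interval 0.0929 to 0.294) and 0.697 in cKO (0.449 to 1.08). In limma's fit over all genes its TAC effect was -1.49 (SE 0.41, adjusted p = 0.103), and it was called with limma-voom on the recovered reads (adjusted p = 0.0303). Over the 6 alternatives the adjusted p ranged from 0.0303 to 0.401.

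In the libraries labelled cKO, none of the 9 genes passed the 2-fold rule between TAC and baseline, while 6.52% of all genes did. The median log2 ratio of the 9 was -0.37, against -0.00 over all genes, and 7 of 9 were below 0 (50.2% of all genes). The intervals of Ppara, Ppargc1b, Esrra and Esrrg excluded 1. How many of all genes met this looser condition was not computed. The difference between the TAC effects of the genotypes, cKO minus CT, was 2.03 log2 units for Klf15 (95% counting interval 1.05 to 3.00). It was 0.67 for Esrra (0.18 to 1.16), 0.52 for Ppargc1a (0.26 to 0.79) and -0.68 for Ppargc1b (-1.23 to -0.12). For the other 5 the interval included 0. The share of all genes with an interval that excluded 0 was not computed. With 1 mouse per group these differences have no test.

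The genotypes were then compared at baseline. None of the 9 genes passed the 2-fold rule, by which 5.07% of all genes differed. Still, 8 of 9 had a log2 ratio below 0 (49.6% of all genes), with a median of -0.48 against 0.00 over all genes. Ppargc1a was the farthest, at a ratio of 0.546 (interval 0.479 to 0.621, log2 -0.87), and Esrrg stood at 0.608 (0.4 to 0.904). Ppara had a ratio of 0.659 (0.528 to 0.818), Rxra 0.658 (0.426 to 0.97) and Klf15 0.713 (0.503 to 0.999). This comparison and that of CT TAC share the CT baseline library. That library was the highest of the 4 for 8 of the 9 genes, a pattern shown by 25.6% of all genes.

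Between the TAC libraries, Klf15 passed, being higher in cKO by a ratio of 2.91 (interval 1.57 to 5.66), and the other 8 did not. By that rule 5.02% of all genes passed, and 2.93% of all genes were higher in cKO TAC. The log2 ratio was below 0 for 6 of the 9 genes and for 49.4% of all genes. Esrra was at a ratio of 1.33 (1.00 to 1.75), Ppargc1a at 0.785 (0.687 to 0.897) and Ppargc1b at 0.645 (0.474 to 0.872). Ppara was at 0.934 (0.672 to 1.29), an interval that includes 1.

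Over both states, limma called none of the 9 for genotype at an adjusted p under 0.05, and 3 genes in all (0.0242%). Of the 9, 1 had an unadjusted p under 0.05, against 7.77% of all genes. This was Ppargc1a, at -0.61 (log2, SE 0.19, adjusted p = 0.515, lower in both states). Limma-voom on the recovered reads also called none of the 9. Both cKO libraries lay below both CT libraries for Ppargc1a and Rxra, 2 of 9 genes, and this held for 14.2% of all genes. Both TAC libraries lay below both baseline libraries for Ppara, Esrra, Esrrg, Nrip1 and Klf15, 5 of 9, and for 22.8% of all genes.

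The genes these factors are known to regulate were read from lists. Of 48 listed PPAR alpha and delta targets, 14 were at least 2-fold lower in CT TAC than in CT baseline (4.69% of all genes). None was higher, against 6.05% of all genes, and the list's median log2 ratio was -0.68. Farthest were the triglyceride hydrolase gene Ces1d (-2.95, 716 reads against 68), the uncoupling protein gene Ucp3 (-2.27, 96 against 14) and the thioesterase gene Acot2 (-2.24, 578 against 90). Pdk4, the kinase that blocks pyruvate oxidation, was at -2.04. In cKO, 2 of the 48 were lower under TAC, Ces1d (-1.85) and Acot1 (-1.23), and 3 were higher. These 3 were Pdk4 (1.27), the peroxisomal thiolase gene Acaa1b (1.64) and the fatty acid binding protein gene Fabp4 (1.56), which endothelial cells also express. In cKO under TAC 6.52% of all genes passed in either direction.

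Limma called 4 of the 48 lower with TAC over all genes and 1 higher, in 2 TAC against 2 baseline mice. Of all genes it called 0.524% lower and 1.82% in either direction. Ces1d fell by 2.40 (log2, SE 0.26, adjusted p = 0.0011), Acot2 by 1.48 (adjusted p = 0.0417), the thiolase gene Acaa2 by 0.81 (adjusted p = 0.0385) and Cpt2, of mitochondrial fatty acid import, by 0.80 (adjusted p = 0.0456). Fabp4 rose by 1.13 (adjusted p = 0.026). At rest, 6 of the 48 were lower in cKO than in CT and 1 was higher, against 5.07% of all genes in either direction. The list's median was -0.48. Lower were Acaa1b (-2.25), Ucp3 (-2.20), Pdk4 (-2.0) and Acot2 (-1.65) among others. Between the TAC libraries 3 were higher in cKO and none was lower, among them Pdk4 at 1.31 and the lipid droplet gene Plin4 at 1.05. Of all genes, 2.93% were higher in cKO TAC and 5.02% passed in either direction.

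Pdk4 did not follow the order of Ppara over the libraries. It had 1299 reads (481.5 CPM) for CT and 196 (119.9 CPM) for cKO at baseline, against 234 (116.8 CPM) and 534 (290.4 CPM) under TAC. Ppara, by contrast, was lowest in both TAC libraries.

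Of 58 listed ERR and PGC-1 targets, mostly respiratory chain and citric acid cycle genes, none was 2-fold lower in CT TAC. By the rule 4.69% of all genes were lower and 6.05% higher, and 2 of the 58 were higher. These were the ATP synthase inhibitor gene Atpif1 (1.36) and cardiac troponin C, Tnnc1 (1.34). The list's median log2 ratio was -0.20 in CT, -0.10 in cKO under TAC, -0.25 for cKO against CT at baseline and -0.20 between the TAC libraries. At baseline 53 of the 58 were below 0 in cKO against CT, and 47 were between the TAC libraries, with none past 2-fold in either. Of all genes, 49.6% and 49.4% were below 0 in these comparisons, and 5.07% and 5.02% passed. In cKO under TAC 1 of the 58 passed, against 6.52% of all genes. It was the potassium channel gene Kcnq1 (-1.01), which did not pass with 4 added reads. Limma called 1 for TAC, the oxoglutarate dehydrogenase gene Ogdh, which fell by 0.78 (SE 0.17, adjusted p = 0.0476) and had shared reads. That is 1 of 58, against 1.82% of all genes, and over 6 alternatives its adjusted p ranged from 0.00414 to 0.386.

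Of 29 listed KLF15 targets and genes of branched-chain amino acid breakdown, 4 were at least 2-fold lower in CT TAC than in CT baseline. They were the proline dehydrogenase gene Prodh (-2.18), the isovaleryl-CoA dehydrogenase gene Ivd (-1.09), the transaminase gene Gpt2 (-1.03) and Ppm1k, the phosphatase that activates branched-chain keto acid breakdown (-1.02). With 4 added reads Gpt2 and Ppm1k did not pass. By the main rule 4.69% of all genes were lower in CT TAC. Prodh (-1.63), Gpt2 (-1.59) and Ppm1k (-1.06) also passed in cKO, in which Klf15 itself did not. In cKO under TAC 6.52% of all genes passed. Limma called Prodh (-1.90, SE 0.31, adjusted p = 0.0131), Ivd (-0.87, adjusted p = 0.0438) and Ppm1k (-1.04, adjusted p = 0.0471) lower with TAC. It called 0.524% of all genes lower. The list's median was -0.62 in CT, -0.29 in cKO, -0.38 for cKO against CT at baseline and -0.19 between the TAC libraries. Between the TAC libraries 1 of the 29 passed, against 5.02% of all genes. It was Gpt2, lower in cKO (-1.06), which did not pass with scaling to total reads, 4 added reads or a 99% interval. None passed at baseline, against 5.07% of all genes.

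**Figure D3:**
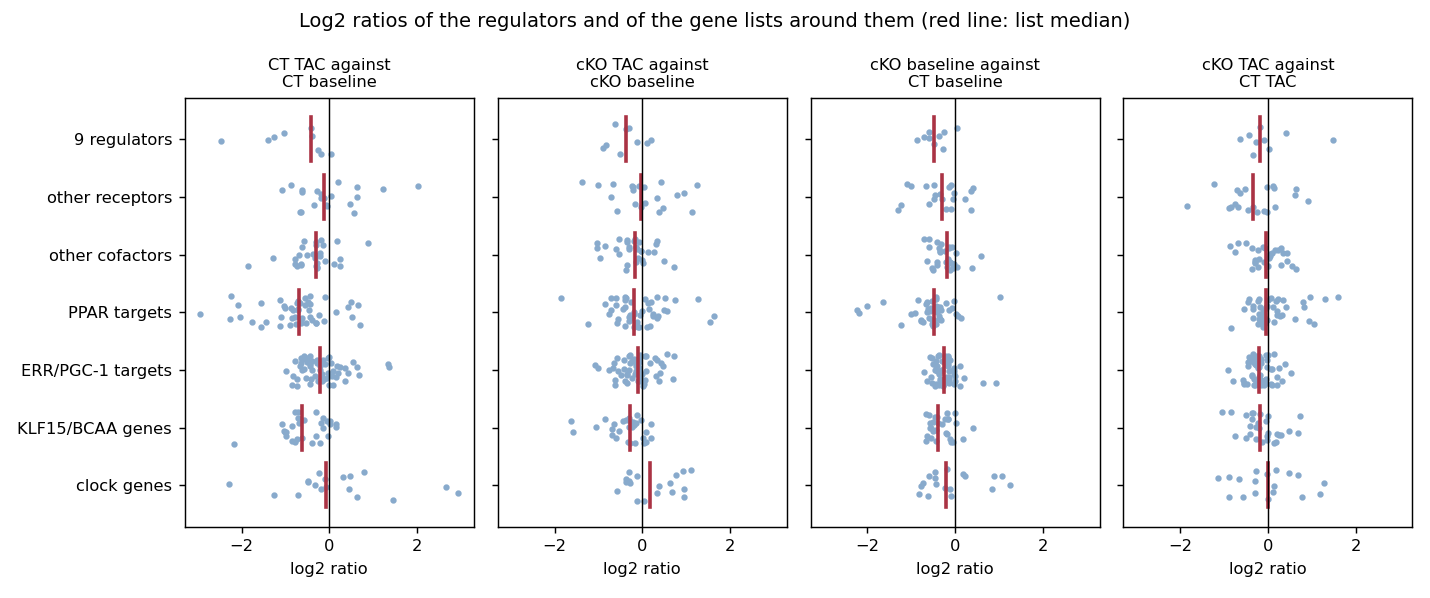
Log2 ratio of every listed gene (points, spread vertically for legibility) and list median (red line) for the 9 regulators and the lists around them in the 4 comparisons. PPAR targets have a median of -0.68 for TAC in CT and -0.18 in cKO.

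Among 21 other nuclear receptors, 1 passed in CT under TAC, 2 in cKO under TAC, 3 at baseline and 1 between the TAC libraries. Among 30 other cofactors and partners these counts were 2, 1, 0 and 0. Of all genes, 6.05% were higher and 4.69% lower in CT TAC, and 6.52% passed in cKO under TAC. At baseline 5.07% of all genes passed, and 5.02% between the TAC libraries. In CT under TAC the receptor gene Rora was higher (1.24), and the cofactor genes Cited4 (-1.86, 28 reads against 5) and Sirt1 (-1.29) were lower. In cKO under TAC the mineralocorticoid receptor gene Nr3c2 (-1.36) and the coactivator gene Ncoa2 (-1.02) were lower, and the stress-induced orphan receptor gene Nr4a1 (1.24) was higher. Nr4a1 (-1.23), Esrrb (-1.10) and Nr2c2 (-1.0) were lower in cKO at baseline, and Nr3c2 was lower in cKO between the TAC libraries (-1.84). Nr3c2 in cKO under TAC did not pass with a 99% interval, Ncoa2 with 4 added reads, and Nr2c2 with either of these or scaling to total reads. Rora, Sirt1, Ncoa2 and Esrrb had shared reads. Medians of the receptors lay between -0.34 and -0.02 over the 4 comparisons and those of the cofactors between -0.31 and -0.04. Limma called none of the 51 for TAC or genotype at an adjusted p under 0.05, with 9 and 6 at an unadjusted p under 0.05. Of all genes, 16.2% were under that p for TAC and 7.77% for genotype. Limma-voom on the recovered reads called 1 for TAC, the lipin gene Lpin1, and 0 for genotype.

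Klf15 is a gene of daily rhythm in the mouse heart, and the time of day of collection is not given in the sources used here. Clock genes differed between the same libraries. Arntl, which encodes the clock activator BMAL1, had 157 reads (58.2 CPM) for CT and 57 (34.9 CPM) for cKO at baseline, against 23 (11.5 CPM) and 49.5 (26.9 CPM) under TAC. The order of the libraries was the same as for Klf15, and Esrra had this order too. The share of all genes with this order was not computed. Dbp, a clock output gene, had 9.64 CPM for CT and 17.7 for cKO at baseline, and 76.9 and 34.8 under TAC, the reverse of the order of Klf15. In CT under TAC, Dbp was 2.93 log2 units higher, Per3 2.67 and Bhlhe41 1.45, and Arntl (-2.29) and Nfil3 (-1.26) were lower. Per3 was also higher in cKO (1.11), but did not pass with 4 added reads or a 99% interval.

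The clock genes differed among themselves. Of the 18 listed, 3 were at least 2-fold higher and 2 lower in CT TAC, and 1 was higher in cKO TAC. Of all genes, 6.05% were higher and 4.69% lower in CT TAC, and 6.52% passed in cKO in either direction. Nr1d1, a clock repressor gene, had log2 ratios of -0.19 for TAC in CT, 0.03 for TAC in cKO, -0.09 for cKO against CT at baseline and 0.13 between the TAC libraries. Dbp rose with TAC by 1.94 (SE 0.40, limma over all genes, adjusted p = 0.039) and Per3 by 1.89 (SE 0.41, adjusted p = 0.0471). At baseline Bhlhe41 (1.24) and Npas2 (1.07) were higher in cKO, and Npas2 did not pass with 4 added reads or a 99% interval. Between the TAC libraries Npas2 (1.29) and Arntl (1.2) were higher in cKO and Dbp lower (-1.13). Arntl, Per3 and Bhlhe41 had shared reads. The part of the clock genes in the Klf15 result was not tested.

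**Figure D4:**
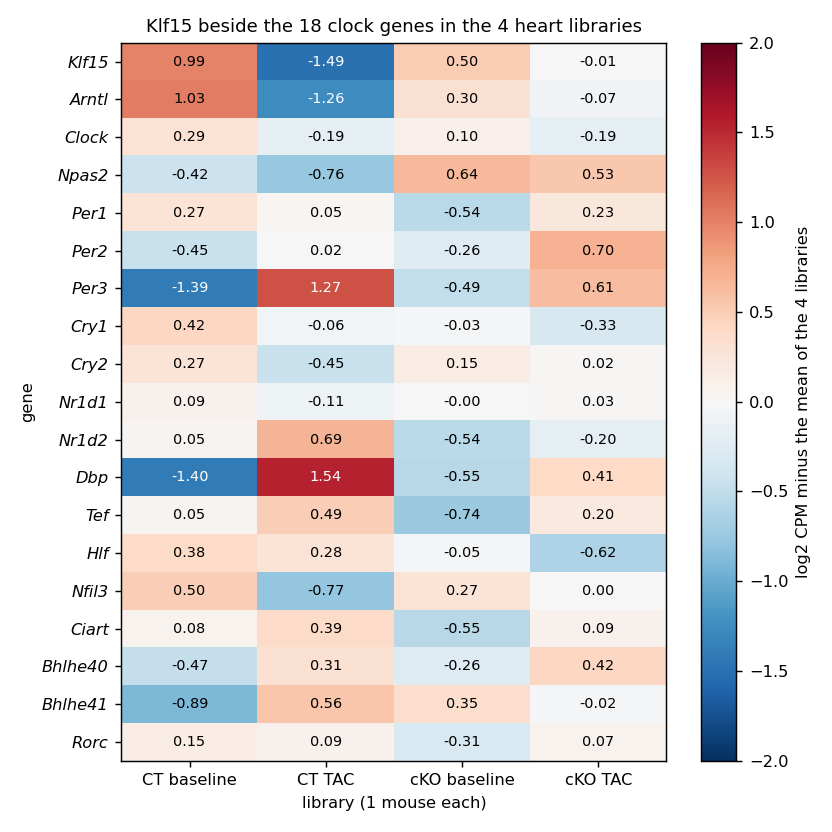
Log2 CPM of Klf15 and the 18 clock genes in each library, minus the mean of the 4 libraries (colour and printed value). Klf15 and Arntl are highest in CT baseline (0.99 and 1.03) and lowest in CT TAC (-1.49 and -1.26), and Dbp has the reverse order.

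Cell make-up also differed between the libraries. Of 12 fibroblast markers, 8 were at least 2-fold higher in CT TAC than in CT baseline, 8 in cKO TAC than in cKO baseline and 6 in cKO than in CT at rest. None of the 12 passed between the TAC libraries. Macrophage markers were higher in cKO at rest in 6 of 10. Of all genes, 6.05% were higher in CT TAC, 6.52% passed in cKO under TAC and 5.07% passed at rest. All 3 listed erythroid markers were at least 2-fold higher in cKO TAC than in CT TAC (2.93% of all genes). Their median log2 ratio was 1.60, in the comparison in which Klf15 passed. Atrial markers, 3 of 5 of them listed, summed to 162 CPM for CT and 2059 for cKO at baseline, and to 3617 and 6502 under TAC. Nearly all of this was Nppa, a natriuretic peptide gene that ventricles also express under load. Cardiomyocyte markers had medians of -0.11 in CT under TAC, -0.15 in cKO under TAC, -0.03 at rest and -0.11 between the TAC libraries. Of these markers only Tnnc1 passed, and only in CT under TAC (1.34). In a whole heart, fewer cells of a type and less RNA per cell cannot be told apart. The part of these shifts in the regulators' values was not tested.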

How the data were processed

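RNA was measured in 4 mouse hearts, 1 per group. Per the labels' protocols, a column kit gave the total RNA, and libraries followed Illumina's standard protocol. Per the submitters' processing notes, the tools include CASAVA, HISAT2 and edgeR, and the build is mm10. For their roles, the counter and the annotation nothing is given in the sources used here. Files deposited by the authors hold log2 CPM, as the values themselves show. Converted to CPM they are evenly spaced, from which the reads, 1 added read (scaled by library size) and the scaled library sizes were recovered. Between 88.6% and 89.0% of genes had whole reads (within 0.01) in each library, and 2449 genes had a fractional count in at least 1 of them.

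Library ratios are differences of the deposited log2 values, with Clopper-Pearson 95% intervals of the ratio from the rounded reads. Ratios written on the linear scale are those of the reads. PCR copies of 1 molecule count as separate reads, so all intervals cover counting error only. To pass, a gene needed a difference of at least 2-fold and an interval without 1. The interval of a difference between TAC effects is a normal approximation from the read counts. All 12408 genes were fitted with limma's trended model (limma 3.58.1 under R 4.3.3) and additive terms for genotype and surgery, which leaves 1 residual degree of freedom. P-values were adjusted by Benjamini-Hochberg. The prior variance, pooled from all genes, had 10.1 degrees of freedom and dominates them, and the spread between mice of a group was not measured. The fit was run on simulated data with TAC changes and no genotype difference. This does not check it where the TAC effect differs between genotypes. The 9 genes, the lists and the tests were chosen with earlier results of these data known. Named list genes were the 5 farthest that passed with at least 10 reads in a library, and those called by limma. The rule's values for 2 genes are not reported here. Alternatives were other scalings, added counts, thresholds, filters and model terms.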

Additional observations from a re-analysis of the deposited data

Results flagged for a closer look

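The following genes had opposite directions under the same contrast, each with a counting interval of the ratio that excluded 1. With 1 mouse per group the difference between the directions was not tested. Klf15 had a log2 ratio of cKO to CT of -0.48 at baseline and 1.48 under TAC. Its baseline ratio had an interval of 0.503 to 0.999, which barely excluded 1. Scaling to total reads moved the baseline log2 ratio to -0.39, so the opposite direction at baseline is weakly held. Among PPAR targets, Pdk4 was at -2.04 in CT and 1.27 in cKO for TAC against baseline, and at -2.0 and 1.31 for cKO against CT at baseline and under TAC. Acot1 went the other way, with 0.65 in CT and -1.23 in cKO for TAC, and 1.03 and -0.85 for genotype at baseline and under TAC. Plin4 had genotype ratios of -0.77 at baseline and 1.05 under TAC, and Fabp4 of -0.74 and 0.12. The orphan receptor gene Nr4a1 was at -0.63 in CT and 1.24 in cKO for TAC, and at -1.23 and 0.63 for genotype at baseline and under TAC.

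Of the clock genes, Arntl had genotype ratios of -0.73 at baseline and 1.2 under TAC, and Dbp had the opposite signs, 0.85 and -1.13. Among the ERR and PGC-1 targets, Atpif1 was at 0.64 at baseline and -0.25 under TAC for genotype, and Tnnc1 at 0.11 and -0.91.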

How the results depend on the processing

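Scaling to total reads, median-of-ratios scaling, no added read, 4 added reads and a 99% interval left the number of the 9 genes that passed at 4, 0, 0 and 1 in the 4 comparisons. With a threshold of 1.5-fold it was 4 for TAC in CT (the same genes), 3 for TAC in cKO, 4 for cKO against CT at baseline and 2 between the TAC libraries. At 1.5-fold, 1416 of all 12408 genes were higher and 1219 lower for TAC in CT, and 928 and 812 for TAC in cKO. For cKO against CT it was 722 higher and 616 lower at baseline, and 753 and 748 between the TAC libraries. None of the 36 log2 ratios of the 9 genes changed sign under the 4 other scalings and added counts. Scaling to total reads moved the calls between the TAC libraries from 364 higher and 259 lower to 479 and 186. The cause was not tested. For TAC, limma called 226 genes. It called 0 without a trend (1544 at an unadjusted p under 0.05), 20 without a genotype term, 78 with 4 added reads and 468 with voom on the recovered reads. None of the 11 calls on listed genes held without a trend, and without a genotype term Ces1d alone held. Of the 9 genes it called 1, against 0, 0, 0 and 2 (Ppara and Klf15) in these settings. For genotype it called 3 genes. That became 0 without a trend, 0 without a surgery term, 0 with 4 added reads, 9 at a mean CPM of at least 5 and 36 with voom. None of the 9 was among the calls for genotype in any of these settings. No paired analysis was possible because each group holds 1 mouse and the labels give no replicate numbers. Leaving out a mouse leaves no residual degrees of freedom, so the values of each genotype and state stand side by side in its place. Klf15 in CT TAC rests on 15 reads and Esrrg in cKO TAC on 22, which limits what their ratios can show.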

Other observations

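Among 8092 other genes with a mean of at least 10 CPM, those closest to a regulator in centred log2 CPM over the 4 libraries were named for the 4 regulators that spanned at least 1 log2 unit. Closest to Ppara was Nsun5, an RNA methyltransferase gene, at a Euclidean distance of 0.09 log2 units, followed by Tmem201 (0.13). Closest to Esrra were Slc20a2, a phosphate transporter gene (0.05), 1110001J03Rik (0.06) and Rnf157 (0.06). Closest to Esrrg were Tbc1d4, which takes part in glucose transporter traffic (0.08), Rpl3l, a ribosomal protein gene of striated muscle (0.13) and Cenpf (0.15). Closest to Klf15 were Lrg1 (0.22), the clock gene Arntl (0.31) and the chemokine gene Ccl6 (0.43). A match over 4 libraries is a description, since with so many genes some lie close to any profile.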
